A study of Sus scrofa with 102 samples.

Results

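*SCD* and 5 genes that furnish reducing power or carbon for fatty acid synthesis (*ME1*, *IDH1*, *TKT*, *ACSS2* and *SLC25A1*) were followed across the *Longissimus dorsi* muscle of 102 pigs. A probe stood for a gene when the platform annotation gave that gene as its only symbol, and the probe with the highest mean was used where there were several. The 6 genes had 7 probes, 2 of them for *ACSS2*, out of 2201 genes named by such a probe and 5449 probes tested. Of the probes tested, 98.0% meet the authors' filter for spread between arrays, so shares and percentiles over all probes describe such a set. *Longissimus dorsi* is the loin muscle, in which fat is laid down among the fibres.

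The pigs came from a backcross in which Iberian Guadyerbas boars were mated to Landrace sows and their crossbred sons to Landrace sows again. All were fed *ad libitum* and the labels give no treatment, so the comparisons available were slaughter batch, sex and carcass weight. Batch 1 held 8 females and 6 males aged 171 to 181 days, batch 2 held 36 females and 34 males aged 178 to 184 days, and batch 3 held 11 females and 7 males aged 178 to 181 days. Carcass weight averaged 65.9 ± 10.2 kg (SD, n = 14) in batch 1, 73.3 ± 8.85 kg (n = 70) in batch 2 and 64.6 ± 11.7 kg (n = 18) in batch 3, and ran from 43.6 to 97.8 kg over all pigs. The study used these arrays to look for chromosome regions linked with gene expression. Related pigs were treated as independent because the pedigree was not used here, so p-values may be too small.

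Fatty acids are built from acetyl-CoA in the cytosol with NADPH as the electron donor. *SCD* encodes stearoyl-CoA desaturase, which puts a double bond into saturated fatty acids and so makes palmitoleic and oleic acid, the main monounsaturated fatty acids of pork. *ME1* (cytosolic malic enzyme) and *IDH1* (cytosolic isocitrate dehydrogenase) each produce NADPH directly. *TKT* (transketolase) works on sugar phosphates in the later part of the pentose phosphate pathway, whose earlier steps produce NADPH. *SLC25A1* (the mitochondrial citrate carrier) exports the citrate from which cytosolic acetyl-CoA is split, and *ACSS2* makes acetyl-CoA from acetate.

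Array medians lay between 6.19 and 6.69 on the log2 scale and pairs of arrays correlated at 0.600 to 0.977, with 6 arrays correlating less well with the rest than the others did (1 in batch 1, 1 in batch 2 and 4 in batch 3). The 3 skeletal muscle fibre markers with a probe (*DES*, *PYGM* and *TCAP*) stood at percentile 98.9 of probe means or higher. Of 6 adipocyte markers *ADIPOQ*, which defines fat cells, stood at percentile 0.771, and *FABP4* at percentile 96.0. The male-specific probe of *EIF1AY* was nearer the male than the female median on 3 arrays labelled female, all in batch 2, and results on sex are given with and without them. In muscle homogenates a lower number of cells of a type cannot be told apart from less RNA per cell.

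The 6 genes differed widely in how far they spread between pigs. *SCD* ranged from 3.16 through a median of 4.78 to 8.12 (mean 4.96 ± 1.19, SD, n = 102). Its probe mean was at percentile 21.4 of all probes and its SD at percentile 95.8. Among the probes tested, a probe of low signal thus carried one of the widest spreads. *ME1* ranged from 7.10 through 8.60 to 9.76 and had the opposite profile, with its mean at percentile 84.4 and its SD at percentile 25.4. *IDH1* ran from 3.82 through 5.41 to 8.34 and was the second most variable of the 6 (SD 0.87, percentile 82.2).

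*TKT* ranged from 4.09 through 5.89 to 7.62, with an SD of 0.67. *ACSS2* ranged from 6.19 through 7.69 to 8.59 on its brighter probe and from 5.22 through 7.59 to 8.75 on the other. The 2 *ACSS2* probes rose and fell together after sex, batch and weight were taken out (r = 0.781, n = 102). *SLC25A1* ranged from 3.92 through 4.57 to 6.35, at percentile 18.1 of probe means. Values of different probes are not compared as levels, because each probe has its own response.

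Sex, batch and weight together accounted for 14.1% of the variance of *SCD* and 11.1% of that of *SLC25A1*. The shares were 28.5% for *ME1*, 30.9% for *IDH1*, 39.0% for *TKT* and 51.9% for *ACSS2*, beside a median of 35.3% over all probes. Thus most of the spread of *SCD* lay between pigs of the same sex, batch and weight. The pig with the highest *SCD* (8.12) was a female of batch 1 weighing 74.5 kg, and the pig with the lowest (3.16) was a male of batch 2 weighing 69 kg.

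**Figure D1:**
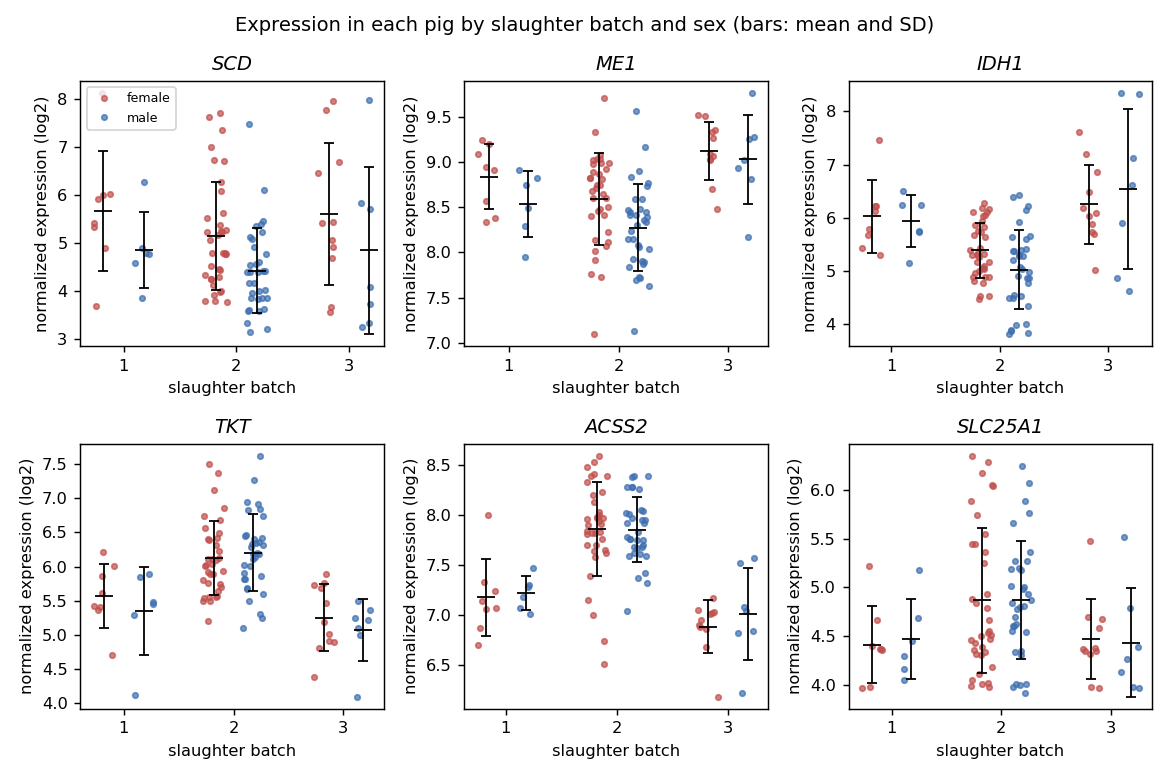
Normalized expression (log2, y axis) of each of the 6 genes in each of the 102 pigs by slaughter batch (x axis), females in red and males in blue, with the mean and SD of each sex in black. *ACSS2* and *TKT* sit higher in batch 2, *IDH1* and *ME1* higher in batch 3, and *SCD* spreads widely in every batch.

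The first question was whether the genes differed between slaughter batches. *IDH1* and *ME1*, both makers of NADPH, were higher in batch 3 than in batch 2, whereas *TKT* and *ACSS2* were lower in batches 1 and 3 than in batch 2. *SLC25A1* passed the joint test over batches only narrowly and *SCD* did not pass it. The moderated F test of limma over both batch contrasts, with sex and weight in the model, called 5 of the 6 genes at an adjusted p under 0.05, where it called 86.6% of all 5449 probes. A batch call was thus common to most probes and is not particular to these genes. The median probe shifted by -0.11 in batch 1 and by -0.17 in batch 3 relative to batch 2.

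*ME1* ran from 7.95 through 8.79 to 9.24 in batch 1, from 7.10 through 8.45 to 9.71 in batch 2 and from 8.17 through 9.08 to 9.76 in batch 3. Batch 3 stood highest but all 3 batches overlapped. Batch 3 exceeded batch 2 by 0.63 on the log2 scale (SE 0.13, adjusted p = 8.83e-06 from limma). The difference of batch 1 from batch 2 was 0.26 (SE 0.14, adjusted p = 0.090 from limma), which did not pass.

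*IDH1* ran from 5.15 through 5.96 to 7.47 in batch 1, from 3.82 through 5.28 to 6.43 in batch 2 and from 4.63 through 6.14 to 8.34 in batch 3. Batch 2 was the low one, and its highest pigs still exceeded the medians of the other batches. Batches 1 and 3 exceeded batch 2 by 0.75 (SE 0.22, adjusted p = 0.00154 from limma) and 1.12 (SE 0.20, adjusted p = 6.29e-07). *IDH1* and *ME1* thus stood among the 36.2% of probes higher in batch 3, and *IDH1* also among the 32.7% higher in batch 1.

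*TKT* ran from 4.11 through 5.47 to 6.21 in batch 1, from 5.10 through 6.12 to 7.62 in batch 2 and from 4.09 through 5.20 to 5.89 in batch 3. The highest pig of batch 3 lay below the median of batch 2. *TKT* was lower than in batch 2 by a log2 difference of -0.61 in batch 1 (SE 0.16, adjusted p = 0.000492 from limma) and of -0.89 in batch 3 (SE 0.15, adjusted p = 7.38e-08).

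*ACSS2* ran from 6.70 through 7.16 to 8.00 in batch 1, from 6.51 through 7.87 to 8.59 in batch 2 and from 6.19 through 6.98 to 7.57 in batch 3. Here too no pig of batch 3 reached the median of batch 2. The differences from batch 2 were -0.61 in batch 1 (SE 0.12, adjusted p = 2.91e-06 from limma) and -0.86 in batch 3 (SE 0.11, adjusted p = 1.15e-11). On the second *ACSS2* probe they were wider, at -0.99 and -1.49. *TKT* and *ACSS2* were among the 41.5% of probes lower in batch 1 and the 45.3% lower in batch 3.

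*SLC25A1* had medians of 4.37, 4.78 and 4.35 in batches 1, 2 and 3, with the highest pigs at 5.22, 6.35 and 5.52. Its high values, above 5.52, were thus all in batch 2. The joint test gave an adjusted p of 0.0461 from limma, but neither contrast passed (-0.37 in batch 1, adjusted p = 0.0585 from limma, and -0.35 in batch 3, adjusted p = 0.0531). The joint call held in 6 of 13 alternative settings.

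*SCD* ran from 3.70 through 5.12 to 8.12 in batch 1, from 3.16 through 4.53 to 7.71 in batch 2 and from 3.26 through 5.24 to 7.99 in batch 3. The 3 batches covered nearly the same range. The estimates against batch 2 were 0.55 (SE 0.33) and 0.52 (SE 0.31), with an adjusted p of 0.125 from limma in the joint test. With the adipocyte marker level as a further term the estimates were 1.03 (adjusted p = 0.00615 from limma) and 0.88 (adjusted p = 0.00773).

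**Figure D2:**
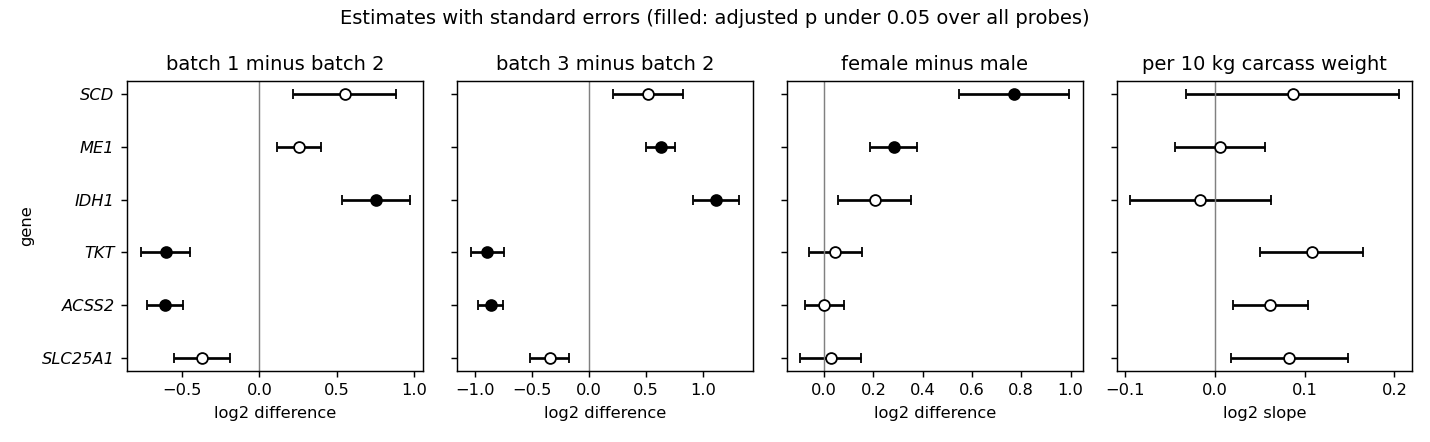
Log2 estimates (x axis) with standard errors for the 6 genes (y axis) from one limma model, for batches 1 and 3 against batch 2, females against males, and each 10 kg of carcass weight; filled points passed an adjusted p of 0.05 over all probes. *IDH1* lies above 0 and *TKT* and *ACSS2* below 0 in both batch contrasts, *SCD* and *ME1* above 0 for sex, and no point is filled for weight.

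Markers of muscle fibres and a measure of RNA integrity moved with slaughter batch. The mean of the 3 fibre markers was 11.9 ± 0.409 (SD, n = 14) in batch 1, 13.1 ± 0.407 (n = 70) in batch 2 and 11.7 ± 0.524 (n = 18) in batch 3, and all 3 markers were lower in batches 1 and 3. *ATP2A1*, the only fast fibre marker with a probe, averaged 12.2, 13.7 and 12.2, and the mean of 7 slow fibre markers 10.3, 10.1 and 10.2. The mean of the 6 adipocyte markers was 7.02, 7.62 and 7.16. In batch 1, 3 of them were lower (*CFD* -0.60, *AGPAT2* -1.18 and *LIPE* -1.68) and none was higher, and in batch 3, 3 were lower (*CFD* -1.07, *AGPAT2* -1.25 and *LPL* -0.49) and *FABP4* was higher (0.60). *ADIPOQ* passed in neither batch contrast (adjusted p = 0.213 and 0.867 from limma). The 5′ minus middle difference of the actin control probes, which falls as RNA is degraded, averaged -1.28, -0.80 and -1.32.

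Markers of other cell types moved with batch as well. Of 9 fibroblast markers 5 were higher and 1 lower in batch 1, and 4 higher and 2 lower in batch 3, the list mean being 7.81, 7.35 and 7.64. *COL3A1*, a fibrillar collagen, was 0.96 higher in batch 1 and 1.31 higher in batch 3, and *FBN1*, fibrillin, 1.1 and 0.68 higher. Of 6 macrophage markers 3 were higher in batch 1, whereas 1 was higher and 3 were lower in batch 3. Of 6 endothelial markers 2 were higher and 1 lower in batch 1, and 3 were lower in batch 3. These counts are to be read beside the 32.7% of probes higher and 41.5% lower in batch 1, and 36.2% and 45.3% in batch 3. The part of the fibroblast, macrophage and endothelial markers in the batch differences was not tested.

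With the level of the fibre markers as a further term, an alternative chosen after seeing the data, 0 of the 6 genes passed the joint batch test by limma (adjusted p from 0.133 to 0.832), while 2169 of the 5449 probes still did. The estimate for *ACSS2* in batch 3 was then -0.22 and that for *IDH1* 0.50. With the actin difference added, *ACSS2* kept -0.69 and *IDH1* 0.78 in batch 3, both past the threshold. The fibre level itself differs between batches, so these terms cannot be told apart from batch in full. Whether the arrays of a batch were also handled together in the laboratory was not stated, so handling and slaughter batch cannot be told apart either.

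**Figure D3:**
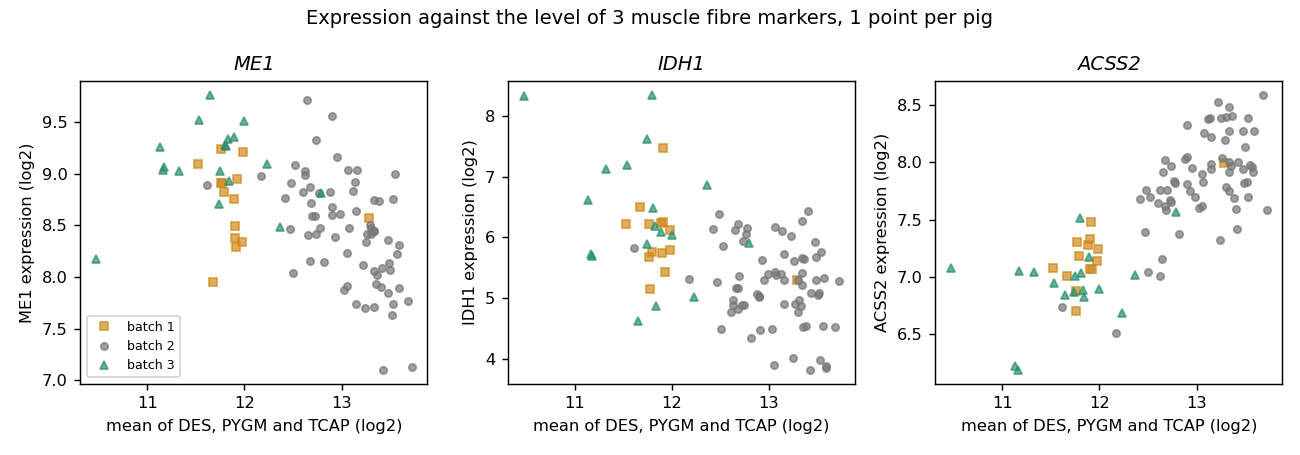
Expression (log2, y axis) of *ME1*, *IDH1* and *ACSS2* against the mean of the muscle fibre markers *DES*, *PYGM* and *TCAP* (log2, x axis), with 1 point per pig and a symbol for each batch. Most pigs of batches 1 and 3 lie to the left of those of batch 2, with *ACSS2* lower and *ME1* and *IDH1* higher there.

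Next, the genes were compared between sexes. *SCD* and *ME1* were higher in females, and no other member passed. *SCD* ran from 3.56 through 5.17 to 8.12 in 55 females and from 3.16 through 4.41 to 7.99 in 47 males. The ranges overlapped almost in full, and the female median lay above the male one. The female minus male difference was 0.77 (SE 0.22, adjusted p = 0.00687 from limma). Mean values of females and males were 5.68 and 4.86 in batch 1, 5.14 and 4.43 in batch 2, and 5.61 and 4.85 in batch 3.

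*ME1* ran from 7.10 through 8.82 to 9.71 in females and from 7.13 through 8.41 to 9.76 in males, again overlapping. The difference was 0.28 (SE 0.09, adjusted p = 0.0202 from limma). Within batch 2 alone it was 0.29 and no longer passed (adjusted p = 0.063), with fewer pigs in the fit. The estimates for *IDH1* (0.21, SE 0.15, adjusted p = 0.309 from limma), *TKT* (0.05, SE 0.11), *SLC25A1* (0.03, SE 0.12) and *ACSS2* (0.00, SE 0.08) did not pass. *SCD* and *ME1* belonged to the 11.7% of probes higher in females, beside 14.4% lower.

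Without the 3 arrays whose male-specific probe went against the label, the sex difference was 0.80 for *SCD* (adjusted p = 0.00538 from limma) and 0.28 for *ME1* (adjusted p = 0.027). Other cell type markers moved with sex as well. Of 9 fibroblast markers 3 were higher in females (*DCN*, *FBN1* and *FAP*), the list averaging 7.58 in females and 7.32 in males, and of 6 endothelial markers 3 were lower. The adipocyte list averaged 7.45 in females and 7.46 in males. *ADIPOQ*, whose mean was near the bottom of the probes tested, was higher in females by 0.65 (adjusted p = 0.0253 from limma). With the adipocyte level in the model *SCD* remained 0.74 higher in females (adjusted p = 0.00539 from limma). The part of the fibroblast and endothelial markers in the sex differences was not tested.

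No change with carcass weight was detected for any member. Slopes for each 10 kg were 0.09 (SE 0.12) for *SCD*, 0.01 (SE 0.05) for *ME1*, -0.02 (SE 0.08) for *IDH1*, 0.11 (SE 0.06) for *TKT*, 0.06 (SE 0.04) for *ACSS2* and 0.08 (SE 0.06) for *SLC25A1*. None passed by limma, nor did any of the 5449 probes (0% called higher and 0% lower), of which 589 had an unadjusted p under 0.05. Among the 7 probes of the members, only the second *ACSS2* probe was under 0.05 unadjusted (slope 0.14, SE 0.05, p = 0.00656, adjusted p = 0.347 from limma). With weight alone in the model, *TKT* (0.24), *ACSS2* (0.19) and *SLC25A1* (0.14) rose and *IDH1* fell (-0.20) with weight, but batch 2 held the heavier pigs.

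The sex difference and the weight slope were also tested for a change between groups. None of the 18 interaction tests of the 6 genes passed by limma. Over all probes, 0% passed for sex by weight, 0.0367% for batch by weight and 0% for sex by batch, with 292, 242 and 425 probes at an unadjusted p under 0.05. The lowest unadjusted p among the members was 0.0977, for *ME1* in batch by weight.

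The relations within the group were then examined on residuals, that is on what remained of each pig's value after sex, batch and weight. Of 15 pairs, 8 passed in both directions of the test over all probes, 6 of them positive and 2 negative. Relations to many probes were common for most members. *SCD* was related to few, with 5.34% of probes rising and 3.43% falling with it. For *ME1* 14.9% rose and 22.7% fell, for *IDH1* 21.7% and 15.4%, for *TKT* 24.7% and 11%, for *ACSS2* 30.1% and 21%, and for *SLC25A1* 28.3% and 18.3%. The share for a pair thus depends on which gene is the tested effect, and the relations of *SCD* to *IDH1* and *TKT*, seen from those genes, were among a larger share of probes. *SCD* went with *IDH1* and *TKT*, *SLC25A1* with *ACSS2*, *TKT* and *IDH1*, and *ACSS2* with *TKT*. *ME1* went against *TKT* and *SLC25A1* and had no detectable relation to *SCD*. A pair was called only where the larger of its 2 adjusted p-values from limma, 1 with each gene as the tested effect, was under 0.05.

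**Figure D4:**
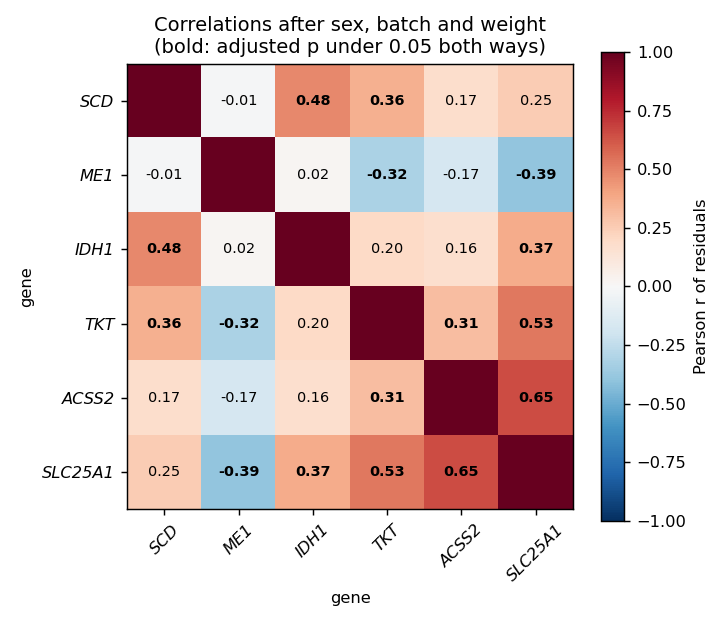
Pearson correlation (colour and number) between the residuals of each pair of the 6 genes over 102 pigs, with genes on both axes and bold numbers for pairs called both ways. *ACSS2*, *SLC25A1* and *TKT* form a positive block, *SCD* joins *IDH1* and *TKT*, and the row of *ME1* is near 0 or negative.

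*SCD* and *IDH1* had the closest relation of any pair with the desaturase (r = 0.483, Spearman's rho = 0.494, larger adjusted p = 0.000121 from limma). Permuting the pigs gave p = 1e-05 for both measures, the smallest that 100000 permutations can give. The correlation was 0.445 without the 2 pigs farthest from the median of *SCD*, and 0.310, 0.346 and 0.754 within batches 1, 2 and 3. It was 0.518 in females and 0.484 in males. In batch 2 alone the pair did not pass (r = 0.35 in a fit to that batch, adjusted p = 0.0725 from limma), and it passed in 15 of 16 alternative settings. Of the 6 arrays that correlated less well with the rest, 5 had *IDH1* values from 7.12 to 8.34, 4 of them in batch 3. Without the 6 arrays the correlation was 0.413 (adjusted p = 0.00667 from limma). *SCD* and *TKT* followed at r = 0.358 (rho = 0.264, larger adjusted p = 0.0101 from limma, permutation p = 0.00029 for r and 0.00741 for rho), with 0.331 when the 2 farthest pigs were left out. On ranks, and in males, where r was 0.192, this pair did not pass, and its call held in 11 of 16 alternative settings.

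*SCD* and *SLC25A1* (r = 0.255, rho = 0.247) passed with *SLC25A1* as the tested effect but not with *SCD* (adjusted p = 0.0234 and 0.0848 from limma), so the pair was not called. *SCD* and *ACSS2* reached 0.173, with -0.523 in batch 1, 0.229 in batch 2 and 0.364 in batch 3. *SCD* and *ME1* were at -0.010 (rho = 0.003, permutation p = 0.919 for r), and within batches at -0.043, -0.035 and 0.088. Before sex, batch and weight were removed the same 2 genes stood at 0.158. Of the 2 direct NADPH producers, therefore, *IDH1* rose with *SCD* among pigs while for *ME1* no relation was detected.

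**Figure D5:**
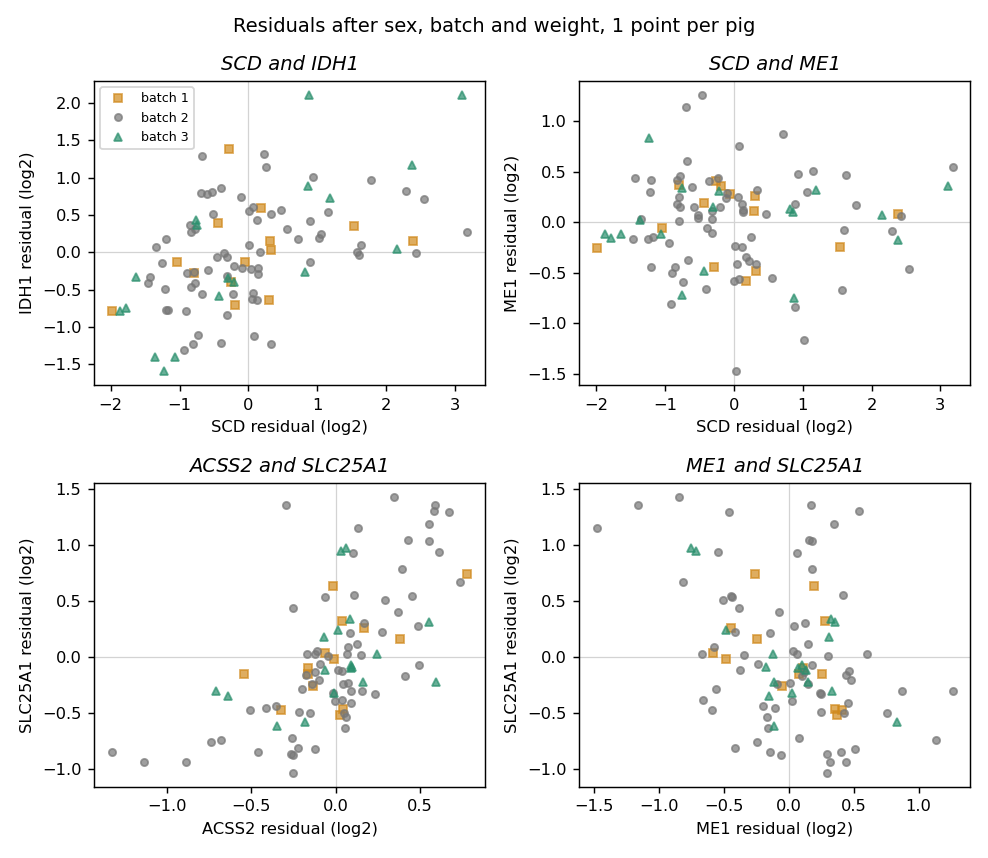
Residuals (log2, both axes) of 4 pairs of genes after sex, batch and weight, with 1 point per pig and a symbol for each batch. *SCD* and *IDH1* (r = 0.483) and *ACSS2* and *SLC25A1* (r = 0.649) rise together, *ME1* and *SLC25A1* (r = -0.391) slope down, and *SCD* and *ME1* (r = -0.010) form a round cloud.

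*ACSS2* and *SLC25A1*, the suppliers of acetyl-CoA and citrate, were the closest pair of all (r = 0.649, rho = 0.659, larger adjusted p = 1.64e-10 from limma, permutation p = 1e-05). Within batches they correlated at 0.609, 0.697 and 0.351, and at 0.638 without the 2 pigs farthest on *ACSS2*. The second *ACSS2* probe gave 0.568. *TKT* and *SLC25A1* were next (r = 0.531, rho = 0.477, larger adjusted p = 2.08e-06 from limma, permutation p = 1e-05, r = 0.469 without the 2 farthest pigs). This relation was closest in batch 2 (0.673), with -0.301 in batch 1 and 0.115 in batch 3, which hold 14 and 18 pigs. *IDH1* and *SLC25A1* correlated at 0.370 (rho = 0.389, larger adjusted p = 0.00126 from limma, permutation p = 0.00017 for r and 4e-05 for rho), positive in all 3 batches, and at 0.342 without the 2 pigs farthest on *IDH1*. It was 0.235 in females, 0.513 in males and 0.124 without covariates, and the call held in 12 of 16 alternative settings.

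*TKT* and *ACSS2* passed at 0.307 (rho = 0.298, larger adjusted p = 0.0115 from limma, permutation p = 0.00176 for r and 0.00261 for rho, r = 0.311 without the 2 farthest pigs). With the fibre marker level added the pair fell to 0.110 (adjusted p = 0.528), and with 2 principal components of all residuals to 0.029. Its call held in 12 of 17 alternative settings. *IDH1* correlated at 0.201 with *TKT* and at 0.164 with *ACSS2*, neither of which passed. With the fibre level added, both did (0.353 and 0.400, adjusted p = 0.00613 and 0.00093 from limma).

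*ME1* was the exception in sign. It fell as *SLC25A1* rose (r = -0.391, rho = -0.333, larger adjusted p = 0.000723 from limma, permutation p = 5e-05 for r and 0.00067 for rho), and the sign was the same in batches 1, 2 and 3 (-0.428, -0.363 and -0.595). Without the 2 pigs farthest on *ME1* the correlation was -0.311. It was -0.557 in females and -0.180 in males, and the difference between sexes was not tested. The call held in 14 of 16 alternative settings. *ME1* and *TKT* gave -0.315 (rho = -0.265, larger adjusted p = 0.00805 from limma, permutation p = 0.00125 for r and 0.007 for rho), which became -0.235 without the 2 farthest pigs and then did not pass (adjusted p = 0.0618). Within batches 1, 2 and 3 this pair stood at -0.020, -0.392 and -0.058, and its call held in 10 of 16 alternative settings. *ME1* had no detectable relation to *IDH1* (0.021) and did not pass with *ACSS2* (-0.169).

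The first principal component of the 6 residuals held 42.4% of their variance, with weights of 0.54 for *SLC25A1*, 0.45 for *TKT*, 0.43 for *ACSS2*, 0.35 for *SCD*, 0.34 for *IDH1* and -0.28 for *ME1*. The second held 21.2% and put *IDH1* (0.56), *SCD* (0.55) and *ME1* (0.54) on one side and *TKT*, *ACSS2* and *SLC25A1* on the other.

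Levels of cell type markers went with several of these residuals, over 48 relations of the 6 genes to 7 marker lists and the actin difference. The adipocyte list went with *SLC25A1* (r = 0.599, rho = 0.592), *ACSS2* (0.519, rho = 0.491) and *TKT* (0.464, rho = 0.417), each at a permutation p of 1e-05 for r (2e-05 or less for rho, 3.69e-05 for r after Benjamini-Hochberg adjustment over the 48), and at 0.595, 0.510 and 0.415 without the 2 farthest pigs. In batch 1 the relation to *TKT* was -0.538, against 0.612 and 0.456 in batches 2 and 3. The fibre marker level went with *ACSS2* (r = 0.559, rho = 0.452) and *SLC25A1* (r = 0.466, rho = 0.556) at the same permutation p for both measures, with 0.547 and 0.543 without the 2 farthest pigs. For *SLC25A1* it did so in batches 1 and 2 (0.547 and 0.625) but not in batch 3 (-0.215). The fibre level also went with *TKT* (0.399, rho = 0.432) and against *ME1* (-0.373, rho = -0.444) and *IDH1* (-0.276, rho = -0.185). For these genes the adjusted permutation p for r was 0.00012, 0.000427 and 0.00737. *IDH1* went with the slow fibre list (0.323) and against *ATP2A1* (-0.244). *ATP2A1* went with *TKT*, *ACSS2* and *SLC25A1* (0.478, 0.546 and 0.489). The actin difference went against *IDH1* (-0.309, rho = -0.219) and with *ACSS2* (0.309, rho = 0.332) and *SLC25A1* (0.281, rho = 0.342). Here the adjusted permutation p for r was 0.00257, 0.00308 and 0.00669, and *SCD*, *ME1* and *TKT* did not pass. With *SLC25A1* it stood at 0.138, 0.519 and -0.512 in batches 1, 2 and 3. With it taken out as well, *IDH1* correlated at 0.288 with *ACSS2* and 0.49998 with *SLC25A1*, and *ACSS2* and *SLC25A1* at 0.616. The adipocyte list also went with *SCD* (0.328, rho = 0.206) and *IDH1* (0.335, rho = 0.261) and against *ME1* (-0.357, rho = -0.400). Their adjusted permutation p for r was 0.00157, 0.00135 and 0.000657. With *SCD* the list stood at -0.308, 0.307 and 0.711 in batches 1, 2 and 3. Of the 6 adipocyte markers 2 rose with *SCD*, *ADIPOQ* (0.496, rho = 0.362) and *LPL* (0.293), beside 5.34% of all probes.

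*SCD* was most closely related to the fibroblast list (r = 0.427, rho = 0.457, permutation p = 2e-05 for r and 1e-05 for rho, adjusted 6.86e-05 for r, 0.399 without the 2 farthest pigs), with 0.058, 0.330 and 0.842 in batches 1, 2 and 3. *ME1* was negatively related to the macrophage list (r = -0.467, rho = -0.477, permutation p = 1e-05 for both, -0.476 without the 2 farthest pigs), at -0.438, -0.496 and -0.419 within batches. This sign was not particular to macrophages, because *ME1* was negative with every marker list. It stood at -0.373 with the fibre markers, -0.324 with *ATP2A1*, -0.291 with the slow fibre list and -0.276 with the fibroblast list. The endothelial list went with *SLC25A1* (r = 0.589, rho = 0.575, 0.550 without the 2 farthest pigs) and *TKT* (0.480, rho = 0.399, then 0.403) and against *ME1* (-0.469, rho = -0.386, then -0.420), each at a permutation p of 1e-05 for r (7e-05 or less for rho, 3.69e-05 for r after adjustment). Within batches 1, 2 and 3 it stood at 0.751, 0.573 and 0.678 with *SLC25A1*, at -0.534, -0.440 and -0.622 with *ME1*, and at -0.014, 0.600 and 0.365 with *TKT*. With the endothelial level taken out as well, *ME1* and *SLC25A1* correlated at -0.162, *ME1* and *TKT* at -0.117, and *TKT* and *ACSS2* at 0.138. These 3 pairs were called without that term and were not tested with it.

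With the adipocyte level added to the model 3 of the 15 pairs were called. These were *SCD* with *IDH1* (0.419), *TKT* with *SLC25A1* (0.356) and *ACSS2* with *SLC25A1* (0.494). *ADIPOQ*, which defines the adipocyte list, had a mean near the bottom of the probes tested. The means of 4 of the other 5 markers of the list (*FABP4*, *CFD*, *LIPE* and *LPL*) were above the middle of all probes.

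Each gene was next set against all other probes. The genes most like *SCD* were *ELOVL6* (r = 0.578), the elongase that works on the same fatty acids, *MGST1* (0.564), a microsomal glutathione transferase, and *ACY1* (0.549), an aminoacylase. *ELOVL6* kept a positive relation to *SCD* within each batch (0.642, 0.530 and 0.640), and was also related to *IDH1* (0.548), *TKT* (0.328) and *SLC25A1* (0.227), but no relation to *ME1* (0.043, adjusted p = 0.768 from limma) or *ACSS2* (0.126, adjusted p = 0.287) was detected. Like *IDH1* it was higher in batch 1 than in batch 2, by 1.12 (SE 0.31, adjusted p = 0.000899 from limma). The genes that fell most with *SCD* were *ACP2* (-0.497), a lysosomal acid phosphatase, *PAPD7* (-0.450), a poly(A) polymerase, and *LOC100523244* (-0.422).

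*IDH1* was most like *ACAA2* (0.691), the thiolase of mitochondrial fatty acid oxidation, *PCCA* (0.666), a subunit of propionyl-CoA carboxylase, and *RETSAT* (0.665), retinol saturase. It was least like *MYF6* (-0.584), a myogenic transcription factor, *OSER1* (-0.566) and *RORA* (-0.524), a nuclear receptor. All 6 relations had the same sign in each batch.

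*ME1* was most like *USP24* (0.633), a deubiquitinase, *CRIPT* (0.585) and *RAN* (0.559), the GTPase of nuclear transport. It fell with *COL5A1* (-0.580) and *COL4A2* (-0.574), which encode collagens, and *CST3* (-0.561), which encodes cystatin C. *TKT* was most like *SH3BGRL3* (0.632), *SERPING1* (0.618), the inhibitor of complement C1, and *CD81* (0.609), a tetraspanin, and fell with *BTBD10* (-0.481), *RAB2A* (-0.469) and *DNAJC2* (-0.468).

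*ACSS2* was most like *ORAI1* (0.759), a calcium channel of the plasma membrane, *LOC100522130* (0.726) and *CYB5R1* (0.723), a cytochrome b5 reductase. *SLC25A1* was most like *BSG* (0.755), basigin, *CD81* (0.747) and *SMTN* (0.744), smoothelin. *PAPOLA*, a poly(A) polymerase, fell with both (-0.628 and -0.569), as did *PPRC1* (-0.645) and *DNAJC2* (-0.580) with *ACSS2* and *SENP6* (-0.581) and *BTBD10* (-0.551) with *SLC25A1*. The *DNAJC2* probe named with *ACSS2* is a different probe from the one named with *TKT*.

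Other genes of the pathway came from 4 lists. Of 31 further genes in a broad list around NADPH, citrate or acetyl-CoA supply 12 had a probe. The list includes *IDH3A*, *IDH3G* and *GPD1*, whose enzymes do not produce NADPH. None of the 12 passed with *SCD*, with which only 5.34% of all probes rose and 3.43% fell. With *TKT* 7 rose, with *ACSS2* 7 and with *SLC25A1* 8, and none fell. Over all probes 24.7%, 30.1% and 28.3% rose with *TKT*, *ACSS2* and *SLC25A1*, and 11%, 21% and 18.3% fell. The median r with *TKT*, *ACSS2* and *SLC25A1* was 0.280, 0.351 and 0.323, beside medians of 0.03, 0.00 and 0.02 over all probes. *IDH3G*, a subunit of mitochondrial isocitrate dehydrogenase, and *SLC25A11*, the oxoglutarate carrier, went with *ACSS2* (0.711 and 0.694), followed by *GPD1*, glycerol phosphate dehydrogenase (0.524), and *PC*, pyruvate carboxylase (0.512). *SLC25A11* and *CS*, citrate synthase, went with *SLC25A1* (0.656 and 0.583), as did *IDH3G* (0.550) and *ME3*, a mitochondrial malic enzyme (0.50). With *TKT* went *PC* (0.502), *IDH3G* (0.464), *GPD1* (0.378) and *TALDO1*, transaldolase (0.371).

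In the same list 4 genes rose and 1 fell with *IDH1*, where 21.7% of all probes rose and 15.4% fell. They were led by *MDH1* (0.599), cytosolic malate dehydrogenase, and *ME2* (0.441), a mitochondrial malic enzyme, with *ACO1*, cytosolic aconitase, at 0.327 and *GPD1* falling (-0.355). With *ME1* 1 gene rose, *MTHFD1* (0.378), and 5 fell, led by *SLC25A11* (-0.433), *ACO1* (-0.353) and *ME3* (-0.344). Over all probes 14.9% rose and 22.7% fell with *ME1*. Across batches 8 of the 12 were lower and 2 higher in batch 1 than in batch 2, and 9 were lower and 2 higher in batch 3, where 41.5% and 45.3% of all probes were lower and 32.7% and 36.2% higher. *GPD1* differed by -1.30 and -1.94, *CS* by -0.94 and -1.15, *PC* by -1.07 and -1.37 and *IDH3G* by -0.86 and -1.06. In females 3 of the 12 were lower (*MDH1*, *CS* and *SLC25A11*) and none higher, beside 14.4% of all probes lower.

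Of 29 further genes of fatty acid synthesis, desaturation and their regulation, 6 had a probe. *NR1H3*, the liver X receptor alpha, fell with *SCD* (-0.312) and *IDH1* (-0.309) and rose with *ACSS2* (0.446) and *SLC25A1* (0.403). *SCAP*, the escort of sterol regulatory element binding proteins, rose with *ACSS2* (0.537), *SLC25A1* (0.602) and *TKT* (0.369) and fell with *ME1* (-0.406). *MID1IP1* fell with *IDH1* (-0.519) and *ACSL3*, a fatty acyl-CoA synthetase, rose with it (0.363). Against batch 2, *NR1H3* differed by -1.42 in batch 1 and -0.92 in batch 3, *SCAP* by -1.01 and -1.03, *INSIG1*, which retains SCAP in the endoplasmic reticulum, by -0.57 and -0.59, and *ACSL3* by 0.55 and 0.75. *ACSL3* was 0.41 higher in females (adjusted p = 0.00425 from limma) and *NR1H3* lower (difference -0.28, adjusted p = 0.0425).

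Of 23 genes of antioxidant defence and its regulation, 9 had a probe. *MGST1* rose with *IDH1* (0.641), *TKT* (0.367) and *SLC25A1* (0.286) as it did with *SCD*, and was 0.44 higher in females (adjusted p = 0.0443 from limma). *TXNRD1*, thioredoxin reductase, fell with *SCD* (-0.294) and was lower in females (-0.47, adjusted p = 0.000119 from limma), and *NQO1* rose with *SCD* (0.294). *GCLC*, a subunit of glutamate cysteine ligase, rose with *ME1* (0.393) and fell with *TKT* (-0.291), *ACSS2* (-0.290) and *SLC25A1* (-0.315), and *GCLM*, its other subunit, fell with *SLC25A1* (-0.269). *POR*, cytochrome P450 reductase, rose with *ACSS2* (0.404), *SLC25A1* (0.416) and *TKT* (0.251) and fell with *ME1* (-0.236). *POR* was lower in females (-0.46, adjusted p = 0.0497 from limma), as was *GPX1* (-0.51, adjusted p = 0.0342). Of the 9 genes 1 was thus higher and 3 lower in females, beside 11.7% and 14.4% of all probes. *GSR*, glutathione reductase, and *TXN*, thioredoxin, rose with *IDH1* (0.412 and 0.379). Against batch 2, *TXN* differed by 0.99 in batch 1 and 1.16 in batch 3, with its probe mean at percentile 4.02 of all probes. *GCLC* differed by 0.70 and 0.74, *GCLM* by -0.62 and -0.69, *POR* by -1.30 in each, and *GSR* by 1.18 in batch 3.

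Of 23 genes of cholesterol synthesis and uptake 4 had a probe. *MSMO1* rose with *SCD* (0.404) and *IDH1* (0.530), *SC5D* with *IDH1* (0.511), and *FDPS* with *ACSS2* (0.419) and *TKT* (0.298). *FDFT1*, squalene synthase, rose with *ACSS2* (0.290) and *ME1* (0.276) and was 0.28 higher in females (adjusted p = 0.0282 from limma). Against batch 2, *MSMO1* differed by 0.54 in batch 1 and 0.50 in batch 3, *SC5D* by 0.44 and 0.57, *FDFT1* by -0.59 and -0.29, and *FDPS* by -0.85 in batch 3.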

How the data were processed

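Total RNA from *Longissimus dorsi* of 102 pigs was hybridized to porcine Affymetrix arrays, 1 array per pig. The authors scanned the arrays with GCOS, checked them with AffyPLM, and deposited GCRMA-normalized values on the log2 scale; the sources used here name no GCRMA version. Their filter kept probes with more than 20% of values beyond 1.5-fold of the probe median, and 98.0% of the probes in the file meet it. Of 5493 probes, 44 controls were left out, and 2639 of the rest have 1 gene symbol, 49 several and 2761 none. No reads exist, so the number of arrays limits the precision.

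limma 3.58.1 (R 4.3.3) was fitted to all 5449 probes with sex, slaughter batch and carcass weight (per 10 kg), the systematic effects of the study's model without its genetic terms, with Benjamini-Hochberg adjustment over all probes and a threshold of 0.05. Relations used each gene's residual, scaled to SD 1, as a further term. Pair p-values came from 100000 two-sided permutations (numpy 2.4.6). The model was tested on simulated data. The members and lists were chosen with earlier results of these data known. Named relations are the 3 genes with the largest positive and negative r for each member. For the pathway lists, genes past the threshold are named, at most 4 by p in each comparison. A gene named for 1 batch is also given for the other where it passed there. Probe coordinates and sequences were not used here, and the planned search for promoter motifs was not run. Alternatives covered normalization, covariates, array weights, subsets of pigs, dim probes (mean under 4) and the second *ACSS2* probe.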

Additional observations from a re-analysis of the deposited data

Results flagged for a closer look

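A male-specific probe gave a signal in arrays labelled female. *EIF1AY*, a Y-linked gene, had medians of 3.23 in the other 52 arrays labelled female (2.79 to 6.63) and 10.4 in 47 arrays labelled male (9.38 to 11.1), but read 8.13, 9.26 and 10.1 in 3 arrays labelled female, all of batch 2. The other 8 genes of the sex check had no probe, and the source of the signal was not tested. Leaving these arrays out kept the calls of *SCD* and *ME1* between sexes.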

How the results depend on the processing

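The calls of *SCD* between sexes, of *ACSS2* with *SLC25A1* and of *TKT* with *SLC25A1* held in every alternative run. The alternatives with the fibre marker level, and those for relations to all probes, were chosen after seeing the data. With the fibre level added, the batch calls fell from 5 of the 6 genes to 0 and from 4721 to 2169 probes. With weight alone in the model, 4 genes and 3412 probes passed for weight, against 0. The probe count for weight was 258 with 2 principal components, 126 with array weights, 45 in females, and 1 without the arrays against the sex label, without those of low correlation, and with batch as a random block. In batch 2 alone, 1 gene differed between sexes (2 in all pigs), and 5 pairs passed (8 in all pigs), with 3 after adding the adipocyte level and 4 in males. Without covariates, that is with sex, batch and weight all left in the values, *IDH1* and *ACSS2* reversed to r = -0.295. The causes of these changes were not tested.

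Counts of related probes moved by over 1.5 times as follows. For *SCD* (478 in the reported model) they were 2072 without covariates, 1055 with the adipocyte level, 277 with array weights, 170 in batch 2, 56 in females and 146 without arrays of low correlation. For *ME1* (2050) they were 3960, and 897 with 2 principal components, 1011 with the adipocyte level, 1080 with the fibre level, 1314 in females and 433 in males. For *IDH1* (2022) they were 4379, and 1279 with the actin difference, 1134 with array weights, 372 in batch 2, 426 in females, 1099 in males and 950 without arrays of low correlation. For *TKT* (1942) they were 4182, and 862, 987 and 765 with principal components, adipocyte and fibre levels, and 165 in males. For *ACSS2* (2786) they were 4458, 933 with components, 1410 with the fibre level and 321 in males, and for *SLC25A1* (2542) 343 in males. No paired analysis was possible because replicate numbers only name pigs. Low signal limits *SCD* and *SLC25A1*, at percentiles 21.4 and 18.1 of probe means.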
